A study of Mus musculus with 11 samples.

Results

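The 10 genes described here encode major proteins of mouse milk or of its fat globules, and they were taken from a given list by symbol, out of 27179 genes with a count in each library. They are the 4 caseins Csn1s1, Csn1s2a, Csn2 and Csn3, the whey proteins Wap and Lalba, the iron carrier Trf, the mucin-like Glycam1 and the milk fat globule proteins Mfge8 and Xdh. RNA-seq was run on 11 libraries from mammary cells: 3 each of MaSC/basal, luminal progenitor (LP) and mature luminal (ML) cells, 1 of mammosphere cells and 1 of the Comma Dβ line. The sorted cells came from wild type, virgin FVB/N females with a labelled age of 8 weeks and no labelled treatment, and 3 independent samples were made of each population. The gates were CD24+CD29hi for MaSC/basal, CD24+CD29loCD61+ for LP and CD24+CD29loCD61- for ML, after removal of blood and endothelial cells by surface antigens. Mammosphere cells were MaSC/basal cells kept for 1 week in non-adherent culture, in medium with EGF, bFGF, insulin and hydrocortisone. Comma Dβ is an immortal line that derives from the mammary gland of Balb/c mice in mid-pregnancy, and it was grown under its maintenance conditions. Library batches 1, 2 and 3 each held an LP and an ML library (replicates 1, 2 and 3 in that order), MaSC/basal replicate 1 was in batch 1 and replicates 2 and 3 in batch 2. The mammosphere library was in batch 1 and the Comma Dβ library in batch 3. The submitted name of 1 MaSC/basal library holds the word p53, while its genotype label is wild type. Whether animals were pooled within a sample was not given in the sources used here.

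Casein micelles carry calcium and phosphate in milk, with Csn3 at their surface and the calcium-sensitive caseins Csn1s1, Csn1s2a and Csn2 within. In the secretory epithelium of pregnancy and lactation, prolactin acts through its receptor, JAK2 and STAT5 to raise milk protein gene transcription, together with glucocorticoid and insulin. In the virgin gland no milk is secreted, and the luminal lineage holds the cells from which the alveoli later form.

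The 4 casein genes lie in 1 cluster on mouse chromosome 5 (GRCm38.p6, the positions and sequences of the RefSeq tables). Csn1s1 spans chr5:87666208-87682578, Csn2 chr5:87692619-87699429, Csn1s2a chr5:87774450-87788798 and Csn3 chr5:87925579-87932550. The other members lie on other chromosomes: Wap on chr11:6635483-6638654, Lalba on chr15:98480400-98482934, Glycam1 on chr15:103562759-103565081, Trf on chr9:103208876-103230286, Mfge8 on chr7:79133768-79149060 and Xdh on chr17:73883895-73950397. The counts are 1 value per gene, so its exons and untranslated parts are not told apart.

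The sequences just before the start sites of the 3 calcium-sensitive casein genes are shown because these genes varied most between replicates within LP and within ML. Csn1s1 is on the plus strand (chr5:87665958-87666207), Csn2 on the minus strand (chr5:87699430-87699675) and Csn1s2a on the plus strand (chr5:87774200-87774449). Each is written 5′ to 3′ on the gene's strand, and capitals mark matches to TTCNNNGAA, the letters STAT factors are known to bind, which read the same on both strands.
Csn1s1: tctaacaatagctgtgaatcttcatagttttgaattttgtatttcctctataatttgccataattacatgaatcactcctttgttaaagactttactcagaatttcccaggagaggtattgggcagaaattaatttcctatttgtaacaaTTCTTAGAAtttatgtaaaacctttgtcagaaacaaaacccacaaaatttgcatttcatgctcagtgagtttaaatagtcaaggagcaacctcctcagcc
Csn2: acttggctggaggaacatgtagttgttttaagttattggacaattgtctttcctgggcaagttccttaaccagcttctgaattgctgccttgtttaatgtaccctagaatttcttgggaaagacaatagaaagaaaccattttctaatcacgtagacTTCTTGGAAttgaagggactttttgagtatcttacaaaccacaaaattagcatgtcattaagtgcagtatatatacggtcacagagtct
Csn1s2a: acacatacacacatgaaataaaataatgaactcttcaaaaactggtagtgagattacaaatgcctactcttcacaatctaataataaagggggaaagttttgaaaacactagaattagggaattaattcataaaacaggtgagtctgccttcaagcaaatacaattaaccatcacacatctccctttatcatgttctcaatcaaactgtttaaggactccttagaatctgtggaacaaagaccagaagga
Csn1s1 held TTCTTAGAA 100 bases before its start site and Csn2 held TTCTTGGAA 93 bases before its own, while the Csn1s2a window had no match. Promoter entries were found for 7 of the 10 members, and 1 of these, Lalba, was not searched because its window lay within the gene model. Of the rest, Glycam1 had 1 match (TTCCCAGAA, 145 bases before the start) and Mfge8 and Wap had none. Among all 32851 promoter windows of up to 250 bases, 7.02% held such a match, and among 14738 windows of genes tested here 6.05% did. These matches describe letters, and no binding was measured.

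The libraries held 19958838 to 75795034 counted reads. Levels are given as reads per 1000000 counted reads (CPM), scaled between libraries by the trimmed mean of M values (TMM). The 6 basal markers, keratins and myoepithelial genes, summed to 13523 to 18439.7 CPM in MaSC/basal against 64.8 to 334 CPM in LP and ML, and the 6 luminal markers to 13192 to 16748 CPM in LP and ML against 1411 to 1699 CPM in MaSC/basal. The 6 luminal progenitor markers summed to 2440.1 to 3072 CPM in LP, 484 to 1433 CPM in ML and 124 to 157 CPM in MaSC/basal. The 6 leukocyte markers summed to 8.00 to 21.8 CPM in all sorted libraries.

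Together the 10 genes took 4.66, 5.91 and 3.18% of all counted reads in LP replicates 1, 2 and 3, and 0.160, 0.140 and 0.149% in the 3 MaSC/basal libraries. In ML the shares were 0.562, 1.46 and 0.331%. The mean was 4.59% ± 1.36 (SD, n = 3) in LP, 0.783% ± 0.594 (SD, n = 3) in ML and 0.150% ± 0.0102 (SD, n = 3) in MaSC/basal, and the 3 populations did not overlap. The mammosphere library had 0.531% (exact 95% binomial interval 0.529 to 0.534) and Comma Dβ 0.0441% (0.0433 to 0.0450), with intervals that cover counting error only. Trf alone made up 50.04 to 59.7% of the members' reads in LP, whereas Mfge8 made up the larger part in MaSC/basal. Without Trf, Mfge8 and Xdh, which have known roles outside milk, the share was 1.11, 2.29 and 0.955% in LP, 0.103, 0.411 and 0.0639% in ML and 0.0122, 0.0112 and 0.0130% in MaSC/basal. The means were 1.45% ± 0.727 (SD, n = 3), 0.192% ± 0.190 and 0.0121% ± 0.000866. Both ML means rested on replicate 2, without which the share was 0.447% for the 10 genes and 0.0832% for these 7. In bulk samples, fewer cells that make these RNAs and less RNA per cell cannot be told apart.

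**Figure D1:**
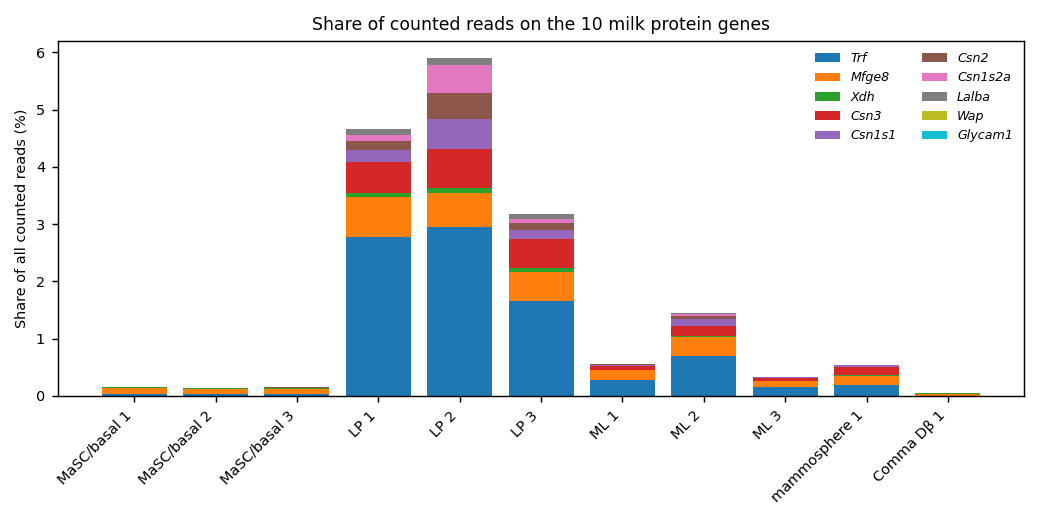
Stacked bars give the percentage of all counted reads that fell on each of the 10 milk protein genes, 1 bar per library, with colours for genes. LP libraries reach 3.18 to 5.91%, with Trf as the largest block, and MaSC/basal libraries stay at 0.140 to 0.160%.

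LP cells had more RNA of 9 of the 10 genes than MaSC/basal cells and than ML cells, and ML cells had more of the same 9 than MaSC/basal cells (edgeR's quasi-likelihood test, adjusted p under 0.05). The exception in each comparison was Glycam1. Over all 15422 genes tested, 28.0% were called higher in LP than in MaSC/basal, 29.7% higher in ML than in MaSC/basal and 14.3% higher in LP than in ML, and 29.4, 28.9 and 17.5% were called lower. The libraries did not overlap for 9 members in LP and MaSC/basal, for 6 in ML and MaSC/basal and for 9 in LP and ML, where this held for 63.9, 65.5 and 47.9% of all genes. The median log2 fold change of the members was 6.55, 3.32 and 2.80 in these comparisons, against 0.01, 0.01 and -0.01 for all genes. All 10 genes passed the filter on low counts (over 0.5 CPM in at least 3 libraries), but Wap passed through luminal libraries alone, and 8 of the other 9 were called in each comparison. The p-values rest on the spread between these 3 samples of each population, pooled over the 3 populations and without pairing libraries by batch. A call between a pair of populations can thus change when a library of the remaining population is left out.

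**Figure D2:**
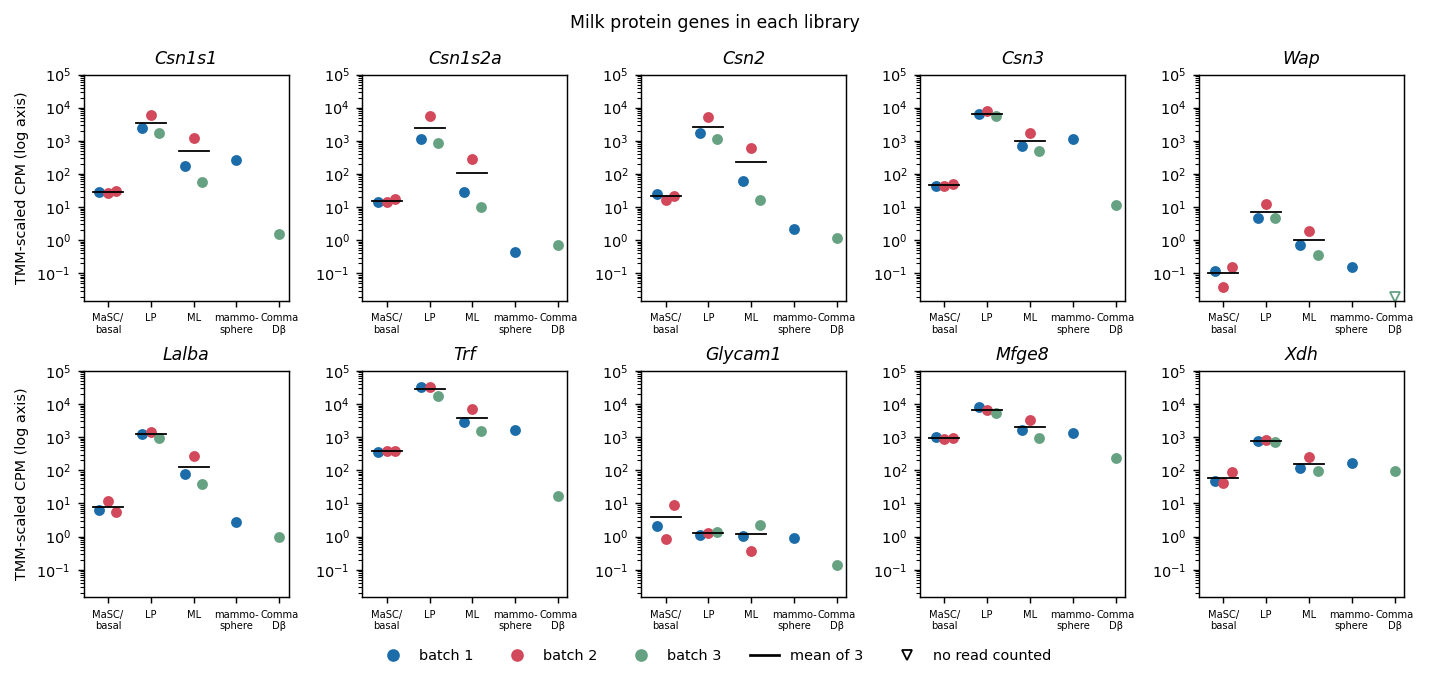
Each panel shows TMM-scaled CPM (log axis) of 1 gene in 11 libraries, with points coloured by library batch, a line at the mean of 3 and an open triangle where no read was counted. LP points lie above ML and MaSC/basal points for every gene but Glycam1, and the batch 2 point is the highest ML point in 9 of 10 panels.

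Among the caseins, Csn3 (κ-casein) had the smallest spread between replicates within LP and within ML. It was at 6245, 7903 and 5475 CPM in LP, 687, 1776 and 494 CPM in ML, and 43.2, 44.3 and 51.2 CPM in MaSC/basal (replicates 1, 2 and 3, as in all such lists). The 3 populations did not overlap and LP replicates lay within 1.44-fold of each other. Its log2 fold change was 7.14 ± 0.53 (SE) for LP against MaSC/basal (adjusted p = 2.62e-06), 4.41 ± 0.47 for ML against MaSC/basal (adjusted p = 2.24e-05) and 2.73 ± 0.43 for LP against ML (adjusted p = 0.00185).

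The calcium-sensitive caseins spread more. Csn1s1 (αs1-casein) was at 2521, 5815 and 1724 CPM in LP, 169, 1205 and 57.6 CPM in ML, and 27.6, 26.9 and 30.1 CPM in MaSC/basal. Replicate 2 was the highest in both luminal populations, and no populations overlapped. The log2 fold change was 6.89 ± 1.12 (SE) for LP against MaSC/basal (adjusted p = 4.67e-04), 4.08 ± 0.98 for ML against MaSC/basal (adjusted p = 0.00491) and 2.81 ± 0.93 for LP against ML (adjusted p = 0.0428).

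Csn2 (β-casein) was at 1708, 5189.6 and 1153 CPM in LP, 61.2, 605 and 16.1 CPM in ML, and 25.1, 16.9 and 21.7 CPM in MaSC/basal. ML replicate 3 lay below all 3 MaSC/basal libraries, while the other ML libraries lay above them. LP was apart from both other populations, by 6.98 ± 1.32 (log2, SE; adjusted p = 0.00122) from MaSC/basal and 3.56 ± 1.12 from ML (adjusted p = 0.0360). ML exceeded MaSC/basal by 3.42 ± 1.12 (adjusted p = 0.0233).

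Csn1s2a (αs2-casein) was at 1149.7, 5533 and 862 CPM in LP, 29.2, 281 and 9.93 CPM in ML, and 13.9, 14.2 and 17.0 CPM in MaSC/basal. Here too ML replicate 3 lay below the MaSC/basal libraries, and LP replicate 2 was 4.81-fold above the next LP library. LP was higher by 7.39 ± 1.36 (log2, SE; adjusted p = 0.00105) than MaSC/basal and by 4.55 ± 1.19 than ML (adjusted p = 0.0174). The log2 fold change of ML against MaSC/basal was 2.83 ± 1.11 (adjusted p = 0.0490).

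The calls of ML over MaSC/basal for Csn1s2a, Csn2 and Mfge8 rested on ML replicate 2, without which the log2 fold changes were 0.39 (adjusted p = 0.670), 0.87 (adjusted p = 0.276) and 0.46 (adjusted p = 0.165), and 6 members were called. These 3 calls were also lost without any 1 of the MaSC/basal libraries (6 called each time, adjusted p up to 0.126), and that of Csn1s2a without LP replicate 1 (adjusted p = 0.0527). For LP against ML, leaving out 1 library ended the call of Csn1s1 in 7 of 9 cases (all but ML replicate 2 and LP replicate 3, adjusted p up to 0.128), of Csn2 in 6 (those but ML replicate 3, adjusted p up to 0.112) and of Csn1s2a in 2 (ML replicate 1 and LP replicate 2, adjusted p up to 0.0568). The direction was kept each time, and as few as 6 members were called.

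**Figure D3:**
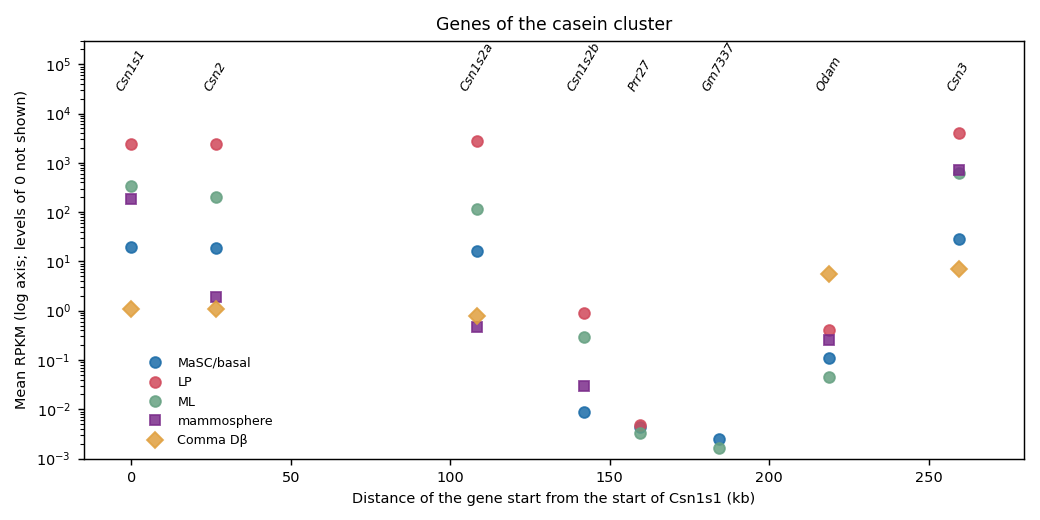
Mean RPKM (log axis) of genes of the casein cluster in each sample type is plotted against the distance in kb of the gene's start position from that of Csn1s1, with 3 libraries per sorted population and 1 per culture. The 4 member caseins sit far above the other counted genes of the interval in LP and ML.

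The cluster spans 266 kb from the start of Csn1s1 to the end of Csn3, and RefSeq lists 11 genes in the interval, of which 8 were in the count tables. Beside the 4 members these were Csn1s2b, Prr27, Gm7337 and Odam, and none of these 4 passed the filter. Csn1s2b, a second αs2-type casein that starts 142 kb from Csn1s1, was highest in LP replicate 2 at 1.24 CPM. Per length, its mean level in LP was 0.916 RPKM (TMM-scaled CPM per kilobase of gene length) next to 2734 RPKM for Csn1s2a. The levels of the 3 genes of the interval outside the count tables are not known here.

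Of the whey proteins, Lalba (α-lactalbumin, the partner of B4GALT1 in lactose synthesis) was at 1285, 1438 and 957 CPM in LP, 77.7, 270.2 and 39.7 CPM in ML, and 6.19, 11.9 and 5.62 CPM in MaSC/basal. No populations overlapped. The log2 fold change was 7.28 ± 0.77 (SE) for LP against MaSC/basal (adjusted p = 2.47e-05), 4.04 ± 0.66 for ML against MaSC/basal (adjusted p = 4.44e-04) and 3.24 ± 0.63 for LP against ML (adjusted p = 0.00474).

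Wap (whey acidic protein, a protein of rodent milk) was low throughout. It was at 4.66, 12.7 and 4.65 CPM in LP, 0.707, 1.95 and 0.365 CPM in ML, and 0.119, 0.0399 and 0.151 CPM in MaSC/basal, the last from 7, 2 and 8 reads. The populations did not overlap, but the MaSC/basal level rests on 17 reads in all. The log2 fold change was 6.11 ± 0.77 (SE) for LP against MaSC/basal (adjusted p = 8.79e-05), 3.32 ± 0.75 for ML against MaSC/basal (adjusted p = 0.00338) and 2.79 ± 0.62 for LP against ML (adjusted p = 0.00858). Per length, its mean in LP was 13.1 RPKM next to 1673 RPKM for Lalba.

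Trf (transferrin) had the highest level per length of the 10 in LP. It was at 32229, 33501 and 17589 CPM in LP, 2848, 6937 and 1525 CPM in ML, and 368, 386 and 379 CPM in MaSC/basal. In each LP library it ranked 1 among all genes per length, with a mean of 11909.6 RPKM. The populations did not overlap, and Trf was higher by 6.20 ± 0.60 (log2, SE; adjusted p = 1.35e-05) in LP than in MaSC/basal, by 3.32 ± 0.52 (adjusted p = 3.40e-04) in ML than in MaSC/basal, and by 2.88 ± 0.51 (adjusted p = 0.00310) in LP than in ML.

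Mfge8 (lactadherin, which binds phosphatidylserine) and Xdh (xanthine dehydrogenase, which is needed for fat droplet release) were also well above 0 in MaSC/basal. Mfge8 was at 8095, 6741 and 5477 CPM in LP, 1628, 3331 and 978 CPM in ML, and 1019.6, 888 and 945 CPM in MaSC/basal. ML replicate 3 lay among the MaSC/basal libraries. The log2 fold change was 2.83 ± 0.40 (SE) for LP against MaSC/basal (adjusted p = 1.92e-04), 1.06 ± 0.38 for ML against MaSC/basal (adjusted p = 0.0354) and 1.77 ± 0.39 for LP against ML (adjusted p = 0.00769).

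Xdh was at 786, 816 and 703 CPM in LP, 115, 255 and 95.3 CPM in ML, and 47.5, 41.9 and 86.7 CPM in MaSC/basal. The populations did not overlap, and LP libraries lay within 1.16-fold of each other. LP exceeded MaSC/basal by 3.71 ± 0.41 (log2, SE; adjusted p = 3.72e-05) and ML by 2.31 ± 0.39 (adjusted p = 0.00251), and ML exceeded MaSC/basal by 1.40 ± 0.38 (adjusted p = 0.00926).

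Glycam1, a mucin of milk that is also made by high endothelial venules, was the member with no such pattern. It was at 1.09, 1.27 and 1.39 CPM in LP, 1.02, 0.359 and 2.23 CPM in ML, and 2.07, 0.857 and 8.80 CPM in MaSC/basal. All populations overlapped, and MaSC/basal replicate 3 was the highest of the 11 libraries. Its log2 fold change was -1.64 ± 0.82 (SE; adjusted p = 0.112) for LP against MaSC/basal, -1.78 ± 0.83 (adjusted p = 0.0891) for ML against MaSC/basal and 0.13 ± 0.85 (adjusted p = 0.922) for LP against ML. Without MaSC/basal replicate 2 it was called lower in LP (-2.12, adjusted p = 0.0394) and in ML (-2.27, adjusted p = 0.0293) than in MaSC/basal, and without ML replicate 3 it was called lower in ML (-2.56, adjusted p = 0.0394). Endothelial markers summed to 46.5, 40.5 and 83.3 CPM in the 3 MaSC/basal libraries against 7.33 to 34.9 CPM in LP and ML, with the markers of high endothelial venules, Chst4 and Madcam1, under 0.5 CPM in every library, and with CD31 among the antigens used for removal. Adipocyte markers summed to 47.7, 30.5 and 69.3 CPM in the same 3 libraries against 3.17 to 36.2 CPM in LP and ML. Most of this was Fabp4, at 43.1, 25.6 and 67.2 CPM in the 3 MaSC/basal libraries. Of the other adipocyte markers there, Adipoq, Plin1 and Retn were at most 0.577 CPM, while Lep reached 4.27 CPM and Cfd 1.75 CPM. The part of endothelial or adipocyte RNA in the Glycam1 values was not tested.

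**Figure D4:**
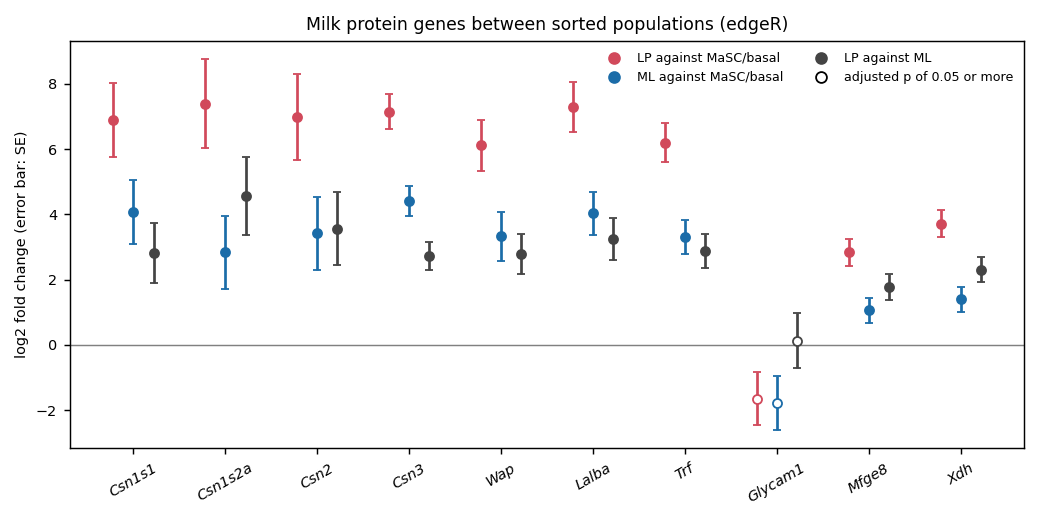
Points give the log2 fold change of each gene in the 3 pairwise comparisons of sorted populations (colours), bars the SE, and open points an adjusted p of 0.05 or more. All genes but Glycam1 lie above 0 in each comparison, and the bars of Csn1s1, Csn1s2a and Csn2 are the widest of the genes called for LP against MaSC/basal.

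Per length, the order of the means in LP was Trf at 11909.6 RPKM, Csn3 at 4096, Mfge8 at 3185, Csn1s2a at 2734, Csn2 at 2396, Csn1s1 at 2368, Lalba at 1673, Xdh at 167, Wap at 13.1 and Glycam1 at 2.00 RPKM. The ranges of Csn3 through Lalba overlapped between neighbours, whereas Trf, Xdh, Wap and Glycam1 did not overlap with their neighbours. The order of the calcium-sensitive caseins and Lalba rested on LP replicate 2, without which the means were 1529 RPKM for Lalba, 1499 for Csn1s1, 1277 for Csn2 and 1093 for Csn1s2a. In MaSC/basal, Mfge8 led at 447 RPKM, followed by Trf at 162 RPKM and Csn3 at 28.9 RPKM.

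Replicate 2 of LP and of ML, both from batch 2, stood apart in these genes. LP replicate 2 was the highest LP library for 8 of the 10 members and ML replicate 2 the highest ML library for 9, where over all genes tested 35.8% and 35.2% had that library as the highest. It exceeded the next LP library by more than 2-fold for 4 members, Csn1s1 (2.31-fold), Csn1s2a (4.81-fold), Csn2 (3.04-fold) and Wap (2.73-fold), against 2.3% of all genes. In ML, 9 members exceeded the next library by more than 2-fold against 2.35% of all genes, from 2.05-fold for Mfge8 to 9.88-fold for Csn2. The calcium-sensitive caseins again had the larger ratios in ML, at 7.15-fold for Csn1s1 and 9.61-fold for Csn1s2a, with Csn3 at 2.585-fold. MaSC/basal replicates 2 and 3, both of batch 2, were set against MaSC/basal replicate 1 of batch 1. The members' ratios ran from 0.336 to 1.92 in replicate 2 and from 0.866 to 4.25 in replicate 3. The highest were Glycam1 in replicate 3, Lalba in replicate 2 and Xdh in replicate 3 (1.83), and the 4 caseins lay between 0.675 and 1.22. The share of all genes with such ratios was not counted. ML replicate 2 also had more luminal progenitor marker RNA (1433 CPM summed, against 672 and 484 CPM) and less mature luminal marker RNA (4057 CPM against 5933 and 6682 CPM) than the other ML libraries. In LP the progenitor sum was 3072, 3009 and 2440.1 CPM, and fibroblast markers summed to 189, 776 and 436 CPM, highest in replicate 2. In ML the fibroblast sum was lowest in replicate 2, at 354 CPM against 645 and 524 CPM. The part of batch, or of cells with these markers, in the replicate 2 values was not tested.

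The LP library was also set beside the ML library of its own batch, in batches 1, 2 and 3. The ratio of LP to ML for Csn2 was 27.9, 8.58 and 71.5 in these batches, for Csn3 9.09, 4.45 and 11.1, and for Trf 11.3, 4.83 and 11.5. All were smallest in batch 2. Glycam1 had ratios of 1.07, 3.55 and 0.622, the first from 31 LP reads and 36 ML reads.

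The mammosphere library divided the milk protein genes. Relative to the 3 MaSC/basal libraries, 4 members were higher, 3 were lower and 3 were neither, where higher or lower means outside their range and over 2-fold from their mean. Over all genes tested 19.5% were higher and 20.7% lower by that rule. This library and the Comma Dβ library have no replicates, so no test was made of either.

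The higher members were Csn3 at 1123 CPM (24.3 times the MaSC/basal mean), Csn1s1 at 267 CPM (9.48 times), Trf at 1672 CPM (4.43 times) and Xdh at 161 CPM (2.75 times). All 4 stayed below every LP library, and Csn3 reached 17.2% of the LP mean. Each of the 4 lay within the range of the ML libraries, which was 494 to 1776 CPM for Csn3. The lower members were Csn1s2a at 0.428 CPM (19 reads, 35.1-fold below the mean), Csn2 at 2.12 CPM (94 reads, 10.0-fold below) and Lalba at 2.75 CPM (122 reads, 2.87-fold below). Thus neighbours within the casein cluster differed in direction: Csn1s1 was higher while Csn2, which starts 26.4 kb away, was lower. Wap at 0.158 CPM (7 reads), Glycam1 at 0.879 CPM and Mfge8 at 1370.4 CPM were neither. The same library had 843 CPM summed over luminal progenitor markers against 124 to 157 CPM in MaSC/basal, 3412 CPM over basal markers against 13523 to 18439.7 CPM, and 1881 CPM over fibroblast markers against 423 to 559 CPM. Their part in the result was not tested.

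In Comma Dβ 8 members with reads were lower than in MaSC/basal and 0 higher, where 25.7% of all genes tested were lower and 16.7% higher. Trf was at 17.0 CPM (22.3-fold below the MaSC/basal mean), Csn1s2a at 0.715 CPM (21.0-fold), Csn1s1 at 1.498 CPM (18.8-fold), Csn2 at 1.19 CPM (17.8-fold) and Lalba at 0.987 CPM (8.00-fold). Csn3 at 11.2 CPM (4.13-fold) and Mfge8 at 236 CPM (4.03-fold) were nearer to the sorted cells. Glycam1 rested on 4 reads. Wap had no read, where 3 reads would be 0.102 CPM and the MaSC/basal mean was 0.103 CPM, so a difference was not detectable at this depth, although 0 lies outside the MaSC/basal range and by the rule alone Wap would make 9. Xdh, at 96.3 CPM, was neither. Strain, origin in pregnancy, culture and library batch cannot be told apart from one another here, as batch 3 held no MaSC/basal library. Luminal markers summed to 217 CPM in this line.

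**Figure D5:**
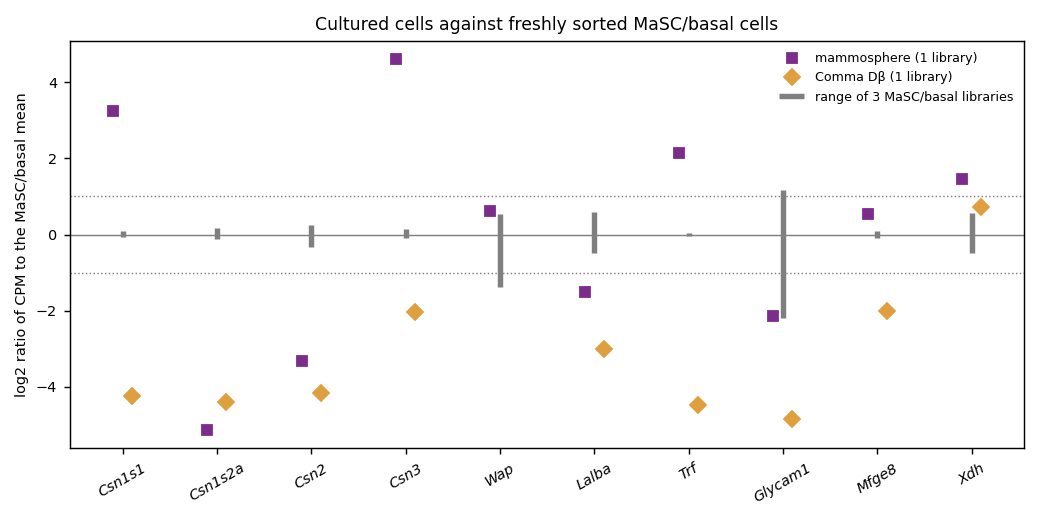
Squares (mammosphere) and diamonds (Comma Dβ) give the log2 ratio of CPM to the mean of 3 MaSC/basal libraries, bars the range of those 3, and dotted lines a 2-fold difference. Mammosphere points lie above the bars for Csn1s1, Csn3, Trf and Xdh and below them for Csn1s2a, Csn2 and Lalba, and Wap in Comma Dβ, with no read, is not drawn.

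Other proteins of milk and luminal secretion were also mostly higher in LP and ML. Of 12 listed genes 11 were tested (Csn1s2b was not), and 10 rose and 0 fell in LP against MaSC/basal, 9 rose and 1 fell in ML against MaSC/basal, and 8 were higher and 0 lower in LP against ML. Of all genes tested, 28.0% rose and 29.4% fell in the first comparison, 29.7% and 28.9% in the second, and 14.3% were higher and 17.5% lower in the third. The median log2 fold change of the list was 5.31, 4.10 and 2.08. Spp1 (osteopontin) had a mean of 9873 CPM in LP, 430.0 CPM in ML and 37.4 CPM in MaSC/basal, and differed by 8.05 ± 0.68 (log2, SE; adjusted p = 5.82e-06) between LP and MaSC/basal and by 4.52 ± 0.58 (adjusted p = 9.32e-04) between LP and ML. Btn1a1 (butyrophilin, of the fat globule membrane) had a mean of 2517 CPM in LP, 363 CPM in ML and 16.4 CPM in MaSC/basal, and rose by 7.26 ± 0.55 (log2, SE; adjusted p = 2.93e-06) in LP against MaSC/basal. Ltf (lactoferrin, an iron-binding defence protein) was alike in mean level in LP and ML, at 1394 and 1404 CPM, with a log2 difference of -0.01 ± 0.40 (SE; adjusted p = 0.989), and stood 5.32 ± 0.48 above MaSC/basal in ML (adjusted p = 7.65e-06). Lcn2 (lipocalin 2) had a mean of 984 CPM in MaSC/basal and was higher by 2.42 ± 0.47 (log2, SE; adjusted p = 0.00148) in LP, while ML differed from MaSC/basal by 0.16 ± 0.45 (adjusted p = 0.773). The gene that fell in ML was Lpo (lactoperoxidase), with a log2 value of -3.53 ± 0.60 (SE; adjusted p = 5.54e-04), named after its value was seen. Lpo was low throughout, at 2.36, 4.13 and 3.17 CPM in MaSC/basal and 0.113, 0.478 and 0.137 CPM in ML. In these ML libraries 3 reads would be 0.0849, 0.0399 and 0.137 CPM. In the mammosphere library Btn1a1 was at 4.78 CPM, Spp1 at 5388 CPM, Lcn2 at 6246 CPM and Ltf at 825 CPM, so members of this list too lay on both sides of the MaSC/basal means.

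Genes of milk fat, lactose and nutrient supply were called in both directions. Of 15 listed genes 14 were tested (Fabp3 was not): 9 rose and 2 fell in LP against MaSC/basal, 6 rose and 2 fell in ML against MaSC/basal, and 9 were higher and 1 lower in LP against ML, with medians of 1.90, 0.68 and 1.22. Over all genes these shares were 28.0% and 29.4%, 29.7% and 28.9%, and 14.3% and 17.5%. No result about the list as a whole is read from its counts for ML against MaSC/basal. Folr1, a folate receptor, had the largest rise in LP, at 6.65 ± 0.36 (log2, SE; adjusted p = 5.08e-07) over MaSC/basal, from a mean of 1.13 CPM to 114 CPM. Plin2, which coats fat droplets, rose by 3.20 ± 0.40 (adjusted p = 7.70e-05) in LP and by 1.43 ± 0.37 (adjusted p = 0.00754) in ML. B4galt1, the catalytic partner of Lalba, rose by 1.91 ± 0.23 (adjusted p = 6.15e-05) in LP and 1.71 ± 0.23 (adjusted p = 1.11e-04) in ML, and LP and ML differed by 0.20 ± 0.22 (adjusted p = 0.528). Slc34a2, a phosphate transporter, was higher in LP than in ML by 2.86 ± 0.46 (adjusted p = 0.00198). Olah, the thioesterase that ends medium-chain fatty acid synthesis, rose most in ML against MaSC/basal, by 4.77 ± 0.80 (adjusted p = 5.37e-04). Its mean was 1.53 CPM in ML and 0.0554 CPM in MaSC/basal, where 3 reads would be 0.0509 to 0.0598 CPM. Olah passed the filter through LP and ML libraries alone, so its fold change rests on few MaSC/basal reads. Named after their values were seen, Cidea (0.305, 0.379 and 0.320 CPM in MaSC/basal) and Atp2b2 (0.0679, 0.120 and 0.151 CPM) also passed without any MaSC/basal library. The rises over MaSC/basal counted above include Olah and Cidea in both LP and ML, and Atp2b2 in LP. Fasn (fatty acid synthase) had log2 fold changes of 0.24 ± 0.25 in LP (adjusted p = 0.437) and -0.21 ± 0.25 in ML (adjusted p = 0.497) against MaSC/basal. Slc2a1 (glucose transporter 1) fell in ML (-0.87 ± 0.29, adjusted p = 0.0243), and its value in LP was 0.30 ± 0.28 (adjusted p = 0.387). Named after their values were seen, the genes that fell in LP were Slc7a5 (an amino acid transporter, -1.62) and Scd2 (a desaturase, -0.86), Slc7a5 (-2.92) fell with Slc2a1 in ML, and Scd2 (-1.26) was the gene lower in LP than in ML.

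Of 15 genes of the lactogenic hormone pathway, all tested, 6 rose and 1 fell in LP against MaSC/basal, 7 rose and 6 fell in ML against MaSC/basal, and 7 were higher and 3 lower in LP against ML, with medians of 0.47, 0.16 and 0.33. Over all genes the shares were 28.0% higher and 29.4% lower, 29.7% and 28.9%, and 14.3% and 17.5% in these comparisons, and no result about the list as a whole is read from its counts. Without ML replicate 1, 4 genes in place of 7 were called higher in LP than in ML. Prlr, the prolactin receptor, had the opposite order of LP and ML from the milk proteins. It was at 486, 845 and 1255 CPM in LP, 4238, 2848 and 4820 CPM in ML, and 23.8, 20.6 and 20.5 CPM in MaSC/basal, with no overlap. Its log2 fold change was -2.20 ± 0.33 (SE; adjusted p = 0.00158) for LP against ML, 5.32 ± 0.38 (adjusted p = 2.27e-06) for LP against MaSC/basal and 7.52 ± 0.43 (adjusted p = 4.60e-07) for ML against MaSC/basal. Within ML, the library lowest in Prlr, replicate 2, was the highest in 9 of the 10 milk protein genes. Prlr is also 1 of the mature luminal markers whose lower sum in this library is given above, so these are not separate observations.

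Elf5, an Ets factor needed for alveolar differentiation, had the same order as the caseins, at a mean of 394 CPM in LP, 95.4 CPM in ML and 5.25 CPM in MaSC/basal. It differed by 6.23 ± 0.32 (log2, SE; adjusted p = 3.68e-07) between LP and MaSC/basal and by 2.04 ± 0.26 (adjusted p = 9.45e-04) between LP and ML, and stood at 150 CPM in the mammosphere library. Elf5 is also 1 of the luminal progenitor markers whose sums are given above, so its levels and those sums are not separate observations. Nfib and Cebpb, factors with a part in milk gene transcription, fell in ML against MaSC/basal, with log2 fold changes of -0.75 ± 0.16 (adjusted p = 0.00262) and -1.45 ± 0.29 (adjusted p = 0.00160), and their values in LP were 0.32 ± 0.16 (adjusted p = 0.113) and -0.27 ± 0.28 (adjusted p = 0.446). The gene of the list that fell in LP was Socs1 (-3.52), and the genes lower in LP than in ML beside Prlr were Stat5a (-0.89) and Jak2 (-0.78), named after their values were seen. Cish, a target of STAT5 chosen after its values were seen, was at 189, 154 and 113 CPM in LP, 113, 162 and 87.7 CPM in ML and 109, 153 and 61.9 CPM in MaSC/basal, against 3.97 CPM in the mammosphere library and 2.42 CPM in Comma Dβ. Its levels in the sorted populations overlapped, and both cultured libraries lay below all 9 of them.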

How the data were processed

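RNA-seq was carried out on the 11 libraries, with the TruSeq RNA kit in batch 1 and its version 2 in batches 2 and 3 per the labels. The authors counted reads per Entrez gene with featureCounts after alignment to mm10, and deposited raw counts with a gene length, neither normalized nor filtered; how strand and reads of several genes were handled is not given in the sources used here. Of 27179 gene IDs, symbols came from RefSeq for 25275 and from GENCODE for 18, and 1886 had none. The members and gene lists were chosen with earlier results of these data known. The named genes were the members, the 4 most abundant genes of each further list, the gene of each list with the largest called change in each comparison, and the 5 genes most correlated with Csn2 and with Csn3. Genes over 0.5 CPM in at least 3 libraries (15422) were fitted with edgeR 4.0.16 in R 4.3.3, as a mean for each of 5 sample types, with TMM scaling and the quasi-likelihood test. Benjamini-Hochberg adjusted p-values under 0.05 were called. CPM values used TMM-scaled library sizes, and RPKM divided them by the deposited gene length. SE is the log2 fold change over the square root of F. The mammosphere and Comma Dβ libraries were compared by range, with no test. Depth was 19958838 to 75795034 counted reads, so that 3 reads corresponded to 0.0399 to 0.160 CPM. Replicates differed beyond sampling noise (chi-square per degree of freedom 50.9 to 184 over 9 pairs), so none was counted as a duplicate.

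The batch number in the labels pairs libraries, so a fit with batch as a block was an alternative; deviations from the group mean correlated at -0.12 to 0.53 over 9 pairs of libraries of 1 batch and different populations. The other alternatives were DESeq2 size factors, no scaling, the filterByExpr filter, no filter, limma voom (3.58.1), DESeq2's Wald test (1.42.0), the sorted libraries alone and leaving out each sorted library. On simulated data for LP against ML, with 200 of 15160 genes changed by a log2 fold of 2, the quasi-likelihood test recovered 185 with 14 false calls, voom 185 with 12 and DESeq2 193 with 49.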

Additional observations from a re-analysis of the deposited data

How the results depend on the processing

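The 9 members called higher in LP than in MaSC/basal kept that count under every alternative run. The count for ML against MaSC/basal was 6 with limma voom, where Csn1s2a (1.73, adjusted p = 0.187), Csn2 (2.03, adjusted p = 0.124) and Mfge8 (0.83, adjusted p = 0.0618) lost their calls, and 8 with DESeq2 size factors, where Csn1s2a did (adjusted p = 0.0508). Leaving out 1 library gave 6 to 9 members for ML against MaSC/basal and 6 to 9 for LP against ML. When the libraries were blocked by batch, as a replicate block, 9 members were called in each comparison and no call of a member changed. Over all genes the block gave 2640 higher and 2998 lower calls for LP against ML. Members called lower were 1 with DESeq2's test for ML against MaSC/basal (Glycam1, -1.75, adjusted p = 0.0448), and 0 to 1 over the left-out libraries there and for LP against MaSC/basal. Glycam1 turned sign for LP against ML without scaling (-0.050) and without ML replicate 2, with -0.36 to 0.91 over the left-out libraries. Without scaling beyond library size, the median of all genes moved to -0.14 for LP against MaSC/basal and -0.19 for LP against ML, with 1581 higher and 3798 lower calls in the latter. Other milk proteins lower in LP than in MaSC/basal were 1 without scaling, 1 with voom and 0 to 1 over the left-out libraries. Lactogenic genes lower in LP than in MaSC/basal were 2 without scaling, 2 with DESeq2 and 1 to 2 over the left-out libraries, and 4 to 7 were higher in LP than in ML. Milk fat, lactose and nutrient supply genes lower in ML than in MaSC/basal were 1 to 2 over the left-out libraries and 3 with the batch block. Those lower in LP than in MaSC/basal were 2 to 3 over the alternatives. Without Trf, Mfge8 and Xdh the share of reads was 1.45% in LP and 0.0121% in MaSC/basal. Members higher in Comma Dβ were 1 without scaling and 0 to 1 over left-out MaSC/basal libraries, and 3 to 4 were lower in mammospheres. The cause of these changes was not tested. Depth limits Wap, Glycam1 and the lowest caseins in cultured cells, which rest on few reads.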

Other observations

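The genes whose log2 CPM followed Csn2 most closely over the 9 sorted libraries were Lao1 (Pearson r = 0.991), an L-amino acid oxidase of milk, Chrdl2 (r = 0.990), Slc39a14 (r = 0.985), a metal ion transporter, Lbp (r = 0.984), the lipopolysaccharide binding protein, and 2610037D02Rik (r = 0.983). Lbp is also 1 of the luminal progenitor markers whose sums are given above. Lao1 had a mean of 184 CPM in LP, 7.72 CPM in ML and 1.02 CPM in MaSC/basal. In the same order, Chrdl2 was at 12.5, 1.23 and 0.353 CPM and 2610037D02Rik at 0.941, 0.120 and 0.00566 CPM. The r of 2610037D02Rik thus rests on few reads outside LP. Those most like Csn3 were Wdr72 (r = 0.999), Ceacam10 (r = 0.998), Nav3 (r = 0.998), Plb1 (r = 0.997) and Pigr (r = 0.997), the receptor that carries immunoglobulin A across the epithelium. Mean levels in MaSC/basal were 0.222 CPM for Wdr72, 0.284 CPM for Ceacam10, 1.38 CPM for Nav3, 2.55 CPM for Plb1 and 0.727 CPM for Pigr. The MaSC/basal means of Chrdl2, Wdr72 and Ceacam10 were under 0.5 CPM, so their r also rests in part on few reads. None of the named genes was among the first 5 for both caseins. Among the members other than Glycam1, correlations ran from 0.887 (Csn3 with Csn1s2a) to 0.995 (Trf with Lalba), and Glycam1 correlated at -0.28 to -0.51 with the others. The 9 libraries fall into 3 populations and share batches, and these values are a description.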
